A study of Mus musculus with 20 samples.

Results

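The brush border is the carpet of microvilli on the apical face of enterocytes, the absorptive cells of the gut epithelium, and its membrane carries the hydrolases that complete the digestion of sugars, peptides and nucleotides. The 9 genes described here encode such enzymes: the disaccharidases Sis (sucrase-isomaltase), Lct (lactase) and Treh (trehalase), the aminopeptidases Anpep (aminopeptidase N) and Enpep (aminopeptidase A), the dipeptidyl peptidase Dpp4, the meprin metalloprotease subunits Mep1a and Mep1b, and the 5′-ectonucleotidase Nt5e. They were taken by gene name from 27573 genes on 2-colour Agilent mouse arrays, on which 13 of 41174 probes stood for them. For 8 of the 9 the name in the files was the symbol itself, and the probe of Sis carried an older clone name that RefSeq lists as a synonym of Sis. All 9 passed a filter that kept probes well above background on every array of at least 1 group and genotype, as did 17084 genes in all, and the brightest kept probe stood for each gene.

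In rodents, lactase is the main disaccharidase before weaning, and sucrase-isomaltase and trehalase appear as the animal changes to solid food. The switch is part of the postnatal maturation of the small intestine, and the fetal colon is known to carry villus-like epithelium with some enterocyte enzymes that the adult colon lacks. Spdef, the gene deleted in the knockout, codes for an ETS factor of goblet and Paneth cells, the secretory cells of the same epithelium.

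RNA was isolated from whole small intestine or whole colon of Spdef KO (Spdef-/-) and wild type mice, and the strain is not given in the sources used here. Adult mice were at postnatal day 30 and fetal mice at E18.5 of gestation. Every array compared a KO pool with a wild type pool, a pool held the RNA of 2 to 3 littermates, and each pool pair was run in both dye orders. There were 2 pool pairs of adult small intestine on 4 arrays, 3 of fetal small intestine on 6, 3 of adult colon on 6 and 2 of fetal colon on 4. Pairs 1 and 2 of fetal small intestine differed by less than the noise between arrays (variance ratio 0.852, against 1.28 to 6.33 for the other pairs of a group), so they were counted as 1 sample. They shared a slide, whereas the other pairs compared lay on different slides. The part of the slide in this low ratio cannot be told apart. Nothing says that pools of a group shared no parents, and p-values measure the spread between these pools. The KO over wild type log2 ratio of Spdef was below 0 on 20 of 20 arrays (-4.09 to -1.20), and 39.8% to 71.6% of probes per channel passed the scanner's test against background. In whole-organ RNA, fewer enterocytes and less of a transcript per enterocyte cannot be told apart.

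Levels are given as log2 intensity after normalization, a scale on which probes at background lie near 7, and a level is comparable between pools for a given probe but not between probes. Differences are log2 with a standard error (SE), and a gene was said to have risen or fallen where limma's adjusted p was under 0.05.

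Among the pools, 2 did not carry the regional profile of their labels, in KO and in wild type alike. The pool labelled fetal small intestine pair 3 had Hoxb13, a homeobox gene of the hindgut, at 11.61 in KO and 11.64 in wild type, whereas pairs 1 and 2 were at 7.06 or below in both genotypes. The pool labelled fetal colon pair 1 had Hoxb13 at 6.93 in KO and 6.99 in wild type, against 11.45 and 11.14 in fetal colon pair 2. Apoa1, the apolipoprotein of small intestinal enterocytes, ran the other way: in wild type it was at 11.95 in fetal small intestine pair 3 against 16.49 and 16.55 in pairs 1 and 2, and at 16.66 in fetal colon pair 1 against 11.73 in pair 2. The median of 12 small intestine regional genes was 8.87 in wild type fetal small intestine pair 3 against 11.69 and 11.69 in pairs 1 and 2, and 12.07 in fetal colon pair 1 against 8.39 in pair 2. Both pools were on the same slide. Whether the labels were exchanged was not tested, the samples were kept in the groups of their labels, and the stage and tissue calls of the members are given with and without this slide. Without it, each fetal group has 1 sample, which the fit takes to vary as the adult pools do.

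**Figure D1:**
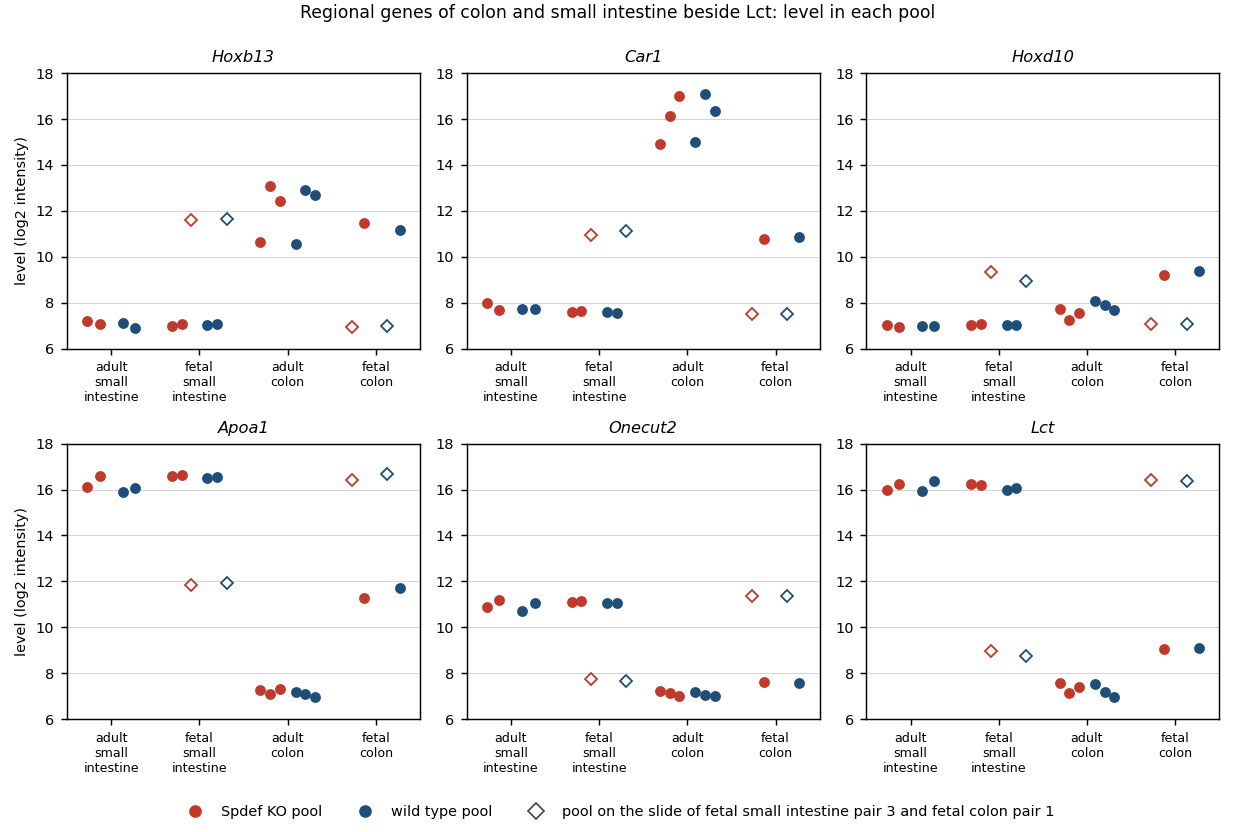
Level (log2 intensity, vertical axis) of 3 colon genes (Hoxb13, Car1, Hoxd10), 2 small intestine genes (Apoa1, Onecut2) and Lct in each pool, with Spdef KO pools left of wild type pools in each group. The open diamonds, the pools labelled fetal small intestine pair 3 and, for colon, fetal pair 1, lie apart from the other pools of their labels in every panel.

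In wild type small intestine, 4 of the 9 hydrolases were higher in adult than in fetal pools by the test: Sis, Treh, Enpep and Nt5e. Of all genes tested, 8.44% passed in either direction and 4.78% as higher. The median difference of the 9 was 2.49 log2 units, with a range of 0.24 to 7.55, beside a median of -0.053 over all genes. Without the slide described above, 4 of the 9 were again higher, with Mep1b in place of Enpep, and 3.06% of all genes were. In wild type colon the same enzymes divided: Anpep and Enpep were lower in adult than in fetal pools and Nt5e was higher, where 8.82% of all genes passed in either direction, 5.94% as higher and 2.89% as lower. Without the slide 2 members were higher in adult colon (Mep1b, Nt5e) and 3 lower (Lct, Anpep, Enpep), where 4.65% of all genes were higher and 4.26% lower.

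**Figure D2:**
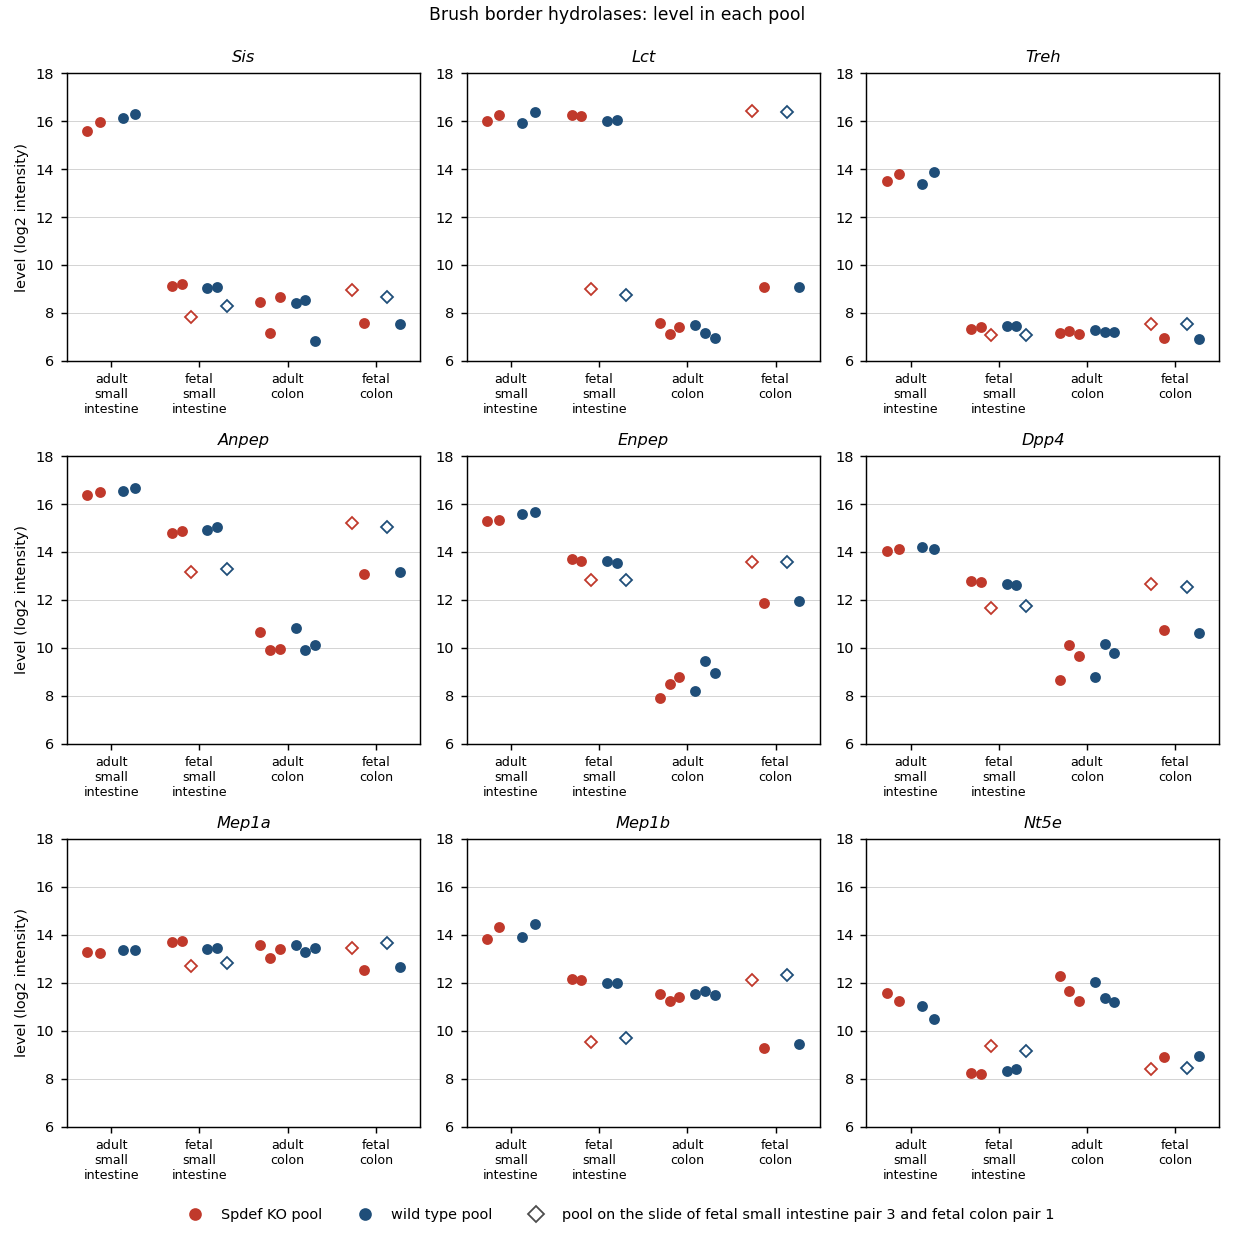
Level (log2 intensity, vertical axis) of the 9 brush border hydrolases in each pool of the 4 groups, with Spdef KO pools (red) left of wild type pools (blue) and open diamonds for the slide that holds both pools set apart above. Sis and Treh are high in adult small intestine only among these groups, Lct is near 16 in 5 of 10 wild type pools and below 10 in the others, and KO and wild type pools lie close together in most panels.

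Sucrase-isomaltase splits sucrose and the branch points of starch fragments. In wild type, Sis was at 16.14 and 16.29 in the adult small intestine pools, against 9.05, 9.06 and 8.28 in the fetal small intestine pools. The groups did not overlap, and the adult level was 187-fold the fetal one (log2 7.55 ± 0.63, SE, adjusted p = 0.000802; 7.16 ± 0.72, adjusted p = 0.00586, without the slide). In colon, Sis stayed low at both stages, at 8.42, 8.53 and 6.82 in adult pools, against 8.66 and 7.54 in fetal pools (log2 difference -0.18 ± 0.58, adjusted p = 0.871; 0.38 ± 0.67, adjusted p = 0.792, without the slide). The probe passed the scanner's test against background on all 20 arrays in both channels. On the scale of levels, however, the 6.82 of adult colon pair 3 lay where probes at background lie.

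Trehalase splits trehalose, the sugar of fungi and insects. Treh was at 13.39 and 13.90 in adult small intestine, against 7.46, 7.46 and 7.08 in fetal small intestine, and lay between 6.90 and 7.53 in all 5 colon pools. Adult small intestine thus stood alone among the 4 wild type groups, 82.9-fold above fetal small intestine (6.37 ± 0.28, adjusted p = 6.07e-05; 6.18 ± 0.28, adjusted p = 0.000483, without the slide). In wild type the probe exceeded background on 4 of 4 adult small intestine arrays, but on 4 of 6 fetal small intestine, 5 of 6 adult colon and 2 of 4 fetal colon arrays, so its low levels lie at or near the floor. In KO the counts were 4 of 4, 4 of 6, 2 of 6 and 2 of 4. The probe passed the filter only through adult small intestine, the group where it is high. Its calls against the other groups therefore lend that height no independent support.

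Lactase splits milk sugar. Lct was at 15.93 and 16.37 in adult small intestine, and at 15.99 and 16.06 in fetal small intestine pairs 1 and 2 but 8.76 in the pool labelled pair 3. In colon it was at 7.51, 7.17 and 6.97 in adult pools, against 16.37 in the pool labelled fetal colon pair 1 and 9.08 in pair 2. Of the 9 members Lct differed most between pools of the same fetal label. No stage comparison of Lct passed with all slides (small intestine 3.76 ± 2.68, adjusted p = 0.415; colon -5.51 ± 2.45, adjusted p = 0.205). Without the slide the adult minus fetal difference was 0.13 ± 0.33 in small intestine (adjusted p = 0.884) and -1.86 ± 0.31 in colon (adjusted p = 0.0229). The adult colon levels lay at background, where the probe was well above it on 2 of 6 wild type arrays.

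The stretch of 250 bases upstream of the start of Sis, Lct and Treh is printed here from RefSeq (GRCm38.p6), because the stage and tissue values of these disaccharidases are given above. Capitals mark matches to motifs of 3 factor families, each searched on both strands. The Cdx motif was TTTAT. The GATA family was searched as GATAA. For HNF4 the motif was CAAAGTCC. Adjoining or overlapping matches run together, as a Cdx and a GATA match do in Lct.
Sis (chr3:72967864-72968113, minus strand): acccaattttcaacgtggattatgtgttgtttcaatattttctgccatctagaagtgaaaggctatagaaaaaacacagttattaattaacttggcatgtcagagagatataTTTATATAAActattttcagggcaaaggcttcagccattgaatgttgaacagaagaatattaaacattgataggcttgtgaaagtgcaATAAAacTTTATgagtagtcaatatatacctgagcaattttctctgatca
Lct (chr1:128328319-128328568, minus strand): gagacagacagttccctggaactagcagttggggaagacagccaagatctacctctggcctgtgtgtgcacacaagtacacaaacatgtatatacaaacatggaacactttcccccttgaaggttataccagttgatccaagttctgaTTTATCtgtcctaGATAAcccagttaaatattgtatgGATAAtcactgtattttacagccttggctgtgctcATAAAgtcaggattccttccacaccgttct
Treh (chr9:44672983-44673232, plus strand): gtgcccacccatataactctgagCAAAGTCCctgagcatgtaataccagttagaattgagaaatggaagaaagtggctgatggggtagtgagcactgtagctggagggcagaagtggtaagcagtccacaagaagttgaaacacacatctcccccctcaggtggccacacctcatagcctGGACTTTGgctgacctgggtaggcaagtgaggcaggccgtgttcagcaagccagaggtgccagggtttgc

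The Sis stretch held 4 TTTAT matches, 2 of them within 50 bases of the start. The Lct stretch held 2 TTTAT and 3 GATAA matches, and the Treh stretch held none of these but 2 CAAAGTCC matches. Of 32851 promoters of the same length in the table, 37.3% held TTTAT, 22.6% GATAA and 1.20% CAAAGTCC. More than 1 match was found in 14.3% for TTTAT and in 4.28% for GATAA, and 3 promoters held CAAAGTCC more than once, Treh among them. Enpep and Dpp4 each had 1 TTTAT and 1 GATAA match, Mep1a had 2 GATAA matches, and Anpep and Nt5e had no match. Anpep and Nt5e also had the most GC-rich stretches (72.8% and 72.0%), against 31.6% for Sis and a median of 52.4% over the table. The motif CCGGAT, which Spdef is known to bind, was in 4.94% of the table and in none of the 8 members that the table holds. A match is a run of letters only, and no binding was measured.

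Aminopeptidase N removes N-terminal residues from small peptides. Wild type Anpep was at 16.56 and 16.67 in adult small intestine, against 14.91, 15.02 and 13.28 in fetal small intestine, so the adult pools were above all fetal ones (2.49 ± 0.72, adjusted p = 0.0777; 1.64 ± 0.41, adjusted p = 0.0801, without the slide). In colon the order was turned: 10.83, 9.90 and 10.13 in adult pools, against 15.02 in the pool labelled fetal colon pair 1 and 13.15 in pair 2. Anpep was 13.9-fold lower in adult than in fetal colon (-3.80 ± 0.66, adjusted p = 0.0161; -2.86 ± 0.38, adjusted p = 0.0129, without the slide).

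Aminopeptidase A prefers acidic N-terminal residues and also cleaves angiotensin II. Enpep was at 15.60 and 15.66 in adult small intestine, against 13.63, 13.53 and 12.84 in fetal small intestine, and the adult pools were higher (2.42 ± 0.59, adjusted p = 0.0493). This call lay at the threshold and held in 9 of 21 alternatives. It was lost without the filter (adjusted p = 0.0938) and without scaling between arrays (adjusted p = 0.116), among others. Without the slide, where it was also lost, the difference was 2.05 ± 0.51. In colon Enpep was at 8.18, 9.46 and 8.94 in adult pools, against 13.58 in the pool labelled fetal colon pair 1 and 11.96 in pair 2. The fall in adult colon was 15.0-fold (-3.91 ± 0.54, adjusted p = 0.00694; -3.10 ± 0.48, adjusted p = 0.019, without the slide).

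Dipeptidyl peptidase 4 removes dipeptides that end in proline or alanine and inactivates incretin hormones. Dpp4 was at 14.22 and 14.14 in adult small intestine, against 12.66, 12.63 and 11.74 in fetal small intestine. Adult colon pools were at 8.78, 10.15 and 9.78, against 12.56 in the pool labelled fetal colon pair 1 and 10.60 in pair 2. Neither stage difference passed the test (1.98 ± 0.69, adjusted p = 0.121, in small intestine; -2.01 ± 0.63, adjusted p = 0.0929, in colon), with or without the slide (1.53 ± 0.55, adjusted p = 0.183, and -1.03 ± 0.52, adjusted p = 0.289, without it). The colon value ran from -2.99 to -1.03 over 21 alternatives and passed in 3 of them, without fetal colon replicate 2 (-2.99, adjusted p = 0.0378), with the scanner's processed signals (adjusted p = 0.0497) and without scaling between arrays (adjusted p = 0.0341). The 2 further Dpp4 probes on the arrays had adult minus fetal values of 2.25 and 1.69 in small intestine and -1.68 and -0.30 in colon. The small intestine value of 1.69 ± 0.34 passed in the fit over all probes (adjusted p = 0.0284), and that of 2.25 did not (adjusted p = 0.0894).

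The meprins are zinc metalloproteases of the astacin family, built of alpha subunits (Mep1a) and beta subunits (Mep1b). Mep1a was the most even member, between 12.66 and 13.67 over the 10 wild type pools. Its adult minus fetal difference was 0.24 in small intestine (95% interval -0.58 to 1.05) and 0.28 in colon (-0.46 to 1.03), and its small intestine minus colon difference in adult pools was -0.073 (-0.82 to 0.67). Without the slide the stage values were -0.052 ± 0.24 (adjusted p = 0.943) and 0.79 ± 0.23 (adjusted p = 0.0955). Mep1b, in contrast, was at 13.92 and 14.45 in adult small intestine, against 12, 11.97 and 9.68 in fetal small intestine (3.35 ± 0.99, adjusted p = 0.0815). Adult colon pools were at 11.53, 11.64 and 11.49, against 12.34 in the pool labelled fetal colon pair 1 and 9.44 in pair 2 (0.66 ± 0.90, adjusted p = 0.678). Without the slide Mep1b passed as higher in adult pools of both tissues (2.20 ± 0.30, adjusted p = 0.0141, in small intestine; 2.11 ± 0.28, adjusted p = 0.0124, in colon).

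The ectonucleotidase CD73, encoded by Nt5e, converts extracellular AMP to adenosine and is made by lymphocytes and stromal cells as well as by epithelium. Nt5e was at 11.03 and 10.49 in adult small intestine, against 8.32, 8.39 and 9.17 in fetal small intestine (3.99-fold, 2.00 ± 0.40, adjusted p = 0.0266; 2.40 ± 0.43, adjusted p = 0.0336, without the slide). In colon it was at 12.03, 11.35 and 11.20 in adult pools, against 8.43 and 8.93 in fetal pools. The adult colon level was 7.19-fold the fetal one (2.85 ± 0.36, adjusted p = 0.00521; 2.60 ± 0.40, adjusted p = 0.019, without the slide). Adult and fetal pools did not overlap in either tissue. The colon call held in 21 of 21 alternatives and the small intestine call in 15 of 21. The small intestine call was lost without adult small intestine replicate 1 (adjusted p = 0.178) or 2 (0.112), without fetal small intestine replicate 1 (0.0918) or 3 (0.052) and without scaling between arrays (0.124), among others. A second, dimmer Nt5e probe was well above background on 11 of 20 arrays in KO and on 10 of 20 in wild type, and had stage values of 0.41 in small intestine (adjusted p = 0.228) and 0.70 in colon (adjusted p = 0.0504).

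**Figure D3:**
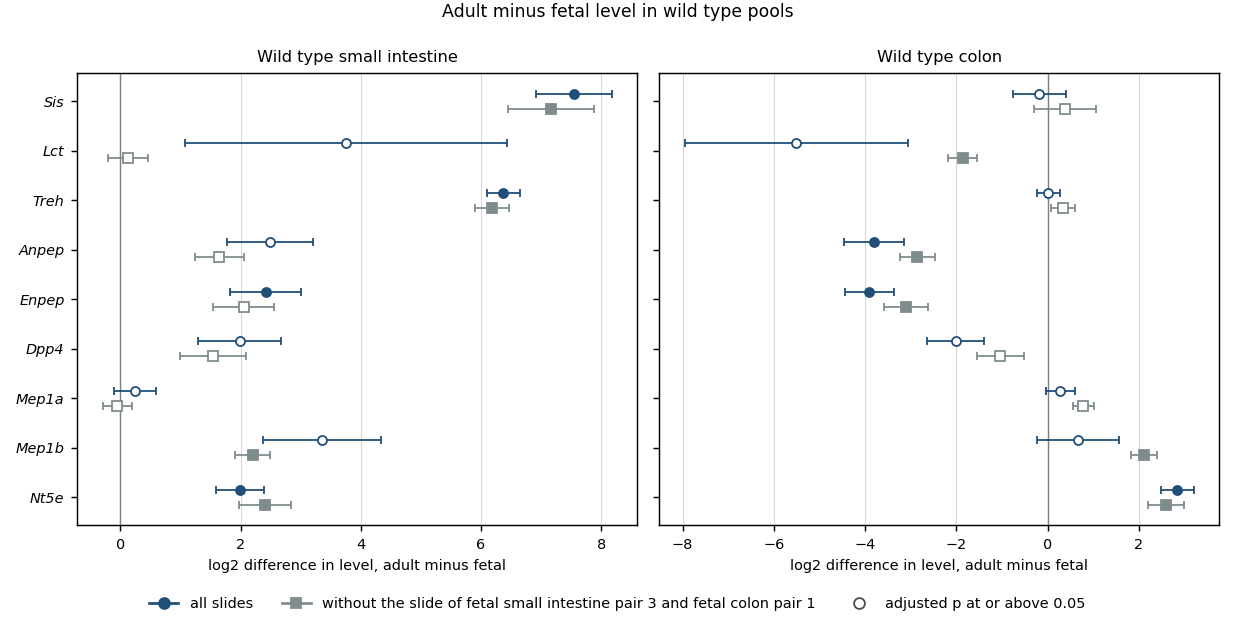
Adult minus fetal difference in wild type level (log2, horizontal axis) for each hydrolase in small intestine and colon, with all slides (blue circles) and without the slide that holds both pools set apart above (grey squares). Bars are 1 SE and filled symbols have an adjusted p under 0.05; Sis and Treh lie above 6 in small intestine and within 0.4 of 0 in colon, and Anpep and Enpep lie on opposite sides of 0 in the 2 tissues.

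The difference between the tissues in their stage difference was itself tested, and passed for 4 of the 9 members, where 0.632% of all genes passed and 0.392% as higher. The small intestine minus colon value of the adult minus fetal difference was 7.73 ± 0.85 for Sis (adjusted p = 0.0104), 6.36 ± 0.38 for Treh (adjusted p = 0.000567), 6.29 ± 0.97 for Anpep (adjusted p = 0.0442) and 6.32 ± 0.80 for Enpep (adjusted p = 0.0181). For Sis and Treh it came from adult small intestine, since the other 3 groups were low. Treh had also passed the filter through adult small intestine only. For Anpep and Enpep both tissues added to it. The small intestine difference was above 0 for both but passed its own test for Enpep only, at the threshold, and both fell in adult colon. Without the slide 3 of the 4 passed, beside 0.392% of all genes as higher, and Sis had 6.78 ± 0.98 (adjusted p = 0.056). With slide as a random block Treh passed (adjusted p = 0.00232), whereas Sis (adjusted p = 0.0986), Anpep (0.149) and Enpep (0.0648) did not. Over 21 alternatives the call held in 20 for Treh, 15 for Sis, 14 for Enpep and 10 for Anpep. Lct had an estimate of 9.27 ± 3.63 (adjusted p = 0.552), and was at 1.99 ± 0.46 (adjusted p = 0.188) without the slide.

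Between the adult tissues of wild type mice, 5 of the 9 members were higher in small intestine than in colon, where 2.97% of all genes passed and 1.45% as higher. Sis was 313-fold higher (8.29 ± 0.58, adjusted p = 0.000459), Enpep 109-fold (6.77 ± 0.54, adjusted p = 0.000921), Treh 85.3-fold (6.41 ± 0.26, adjusted p = 3.34e-05), Anpep 80.3-fold (6.33 ± 0.66, adjusted p = 0.00317) and Dpp4 24.4-fold (4.61 ± 0.63, adjusted p = 0.011). Treh lay near background in adult colon, so its fold depends on the processing (log2 6.16 to 9.66 over 21 alternatives). Lct had an estimate of 8.93 ± 2.45 (adjusted p = 0.108) against adult colon levels near background, and it passed without the slide (adjusted p = 2.82e-05), as did Mep1b (2.63 ± 0.22, adjusted p = 0.00163). The count was then 7 of 9, beside 4.3% of all genes as higher. On the 1 slide that held an adult pool of each tissue, the differences of the 5 called members were 7.75 for Sis, 6.20 for Enpep, 6.70 for Treh, 6.76 for Anpep and 3.99 for Dpp4. Mep1a and Nt5e did not pass with or without the slide, with estimates of -0.073 ± 0.32 (adjusted p = 0.927) and -0.77 ± 0.36 (adjusted p = 0.322).

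Between the fetal tissues as labelled, none of the 9 members passed, and 1 gene of 17084 did (0.00585%). At an unadjusted p under 0.05 the count of members was also 0, where 0.509% of all genes passed. Without the slide, on 1 sample per tissue, Lct was higher in fetal small intestine than in fetal colon (6.94 ± 0.38, adjusted p = 0.00219), as was Mep1b (2.55 ± 0.34, adjusted p = 0.0237), where 2.7% of all genes passed and 1.9% as higher. On the slide itself the difference of the pool labelled fetal small intestine over the pool labelled fetal colon was -7.61 for Lct and -2.66 for Mep1b. The other members had values of 0.57 (Treh) to 2.04 (Dpp4) without the slide, except Nt5e (-0.57), and none of them passed.

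Other genes of the brush border and of enterocytes were read beside the members. Of all genes, 4.78% rose and 3.66% fell in adult against fetal small intestine. Of 17 other brush border hydrolases measured (of 20 listed), 5 rose and 0 fell in adult against fetal small intestine, with a median of 2.54. Among them were the dipeptidase Dpep1 (2.73 ± 0.20, adjusted p = 0.000499), the maltase-glucoamylase Mgam (3.25 ± 0.29, adjusted p = 0.00108), the aminopeptidase P gene Xpnpep2 (4.68 ± 0.46, adjusted p = 0.00169) and Tmprss15, the enteropeptidase that activates trypsinogen (3.67 ± 0.44, adjusted p = 0.00392). Of 20 brush border transporters 6 rose and 0 fell, with a median of 2.69, led by the peptide transporter Slc15a1 (2.54 ± 0.42), the glutamate transporter Slc1a1 (2.84 ± 0.58), the fructose transporter Slc2a5 (4.97 ± 1.06) and the folate transporter Slc46a1 (2.46 ± 0.55). Of 19 genes of the microvillus scaffold 4 rose, the actin nucleator Cobl (3.44 ± 0.26), ezrin Ezr (1.70 ± 0.37), the brush border myosin Myo1a (2.81 ± 0.66) and the junction protein Cgn (0.86 ± 0.21), with a median of 1.11. Of 20 transcription factors known to act in enterocytes 2 rose, Rxra (1.27 ± 0.21) and Tcf7l2 (1.56 ± 0.28), and Cdx2, Hnf4a and Gata4 did not pass.

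Genes known to change at the suckling to adult transition also moved. Of 14 adult-type enterocyte genes 8 rose in adult small intestine, led by adenosine deaminase Ada (6.46 ± 0.33, adjusted p = 8.73e-05), the arginase Arg2 (5.66 ± 0.30, adjusted p = 9.21e-05) and the carboxylesterase Ces2c (4.51 ± 0.28, adjusted p = 0.000282). Of 13 fetal and suckling-type genes 2 fell, alpha-fetoprotein Afp (-4.14 ± 0.82, adjusted p = 0.0262) and the endocytic adaptor Dab2 (-2.41 ± 0.41, adjusted p = 0.0154). Without the slide the counts in small intestine were 7 of 17 other hydrolases, 8 of 20 transporters, 2 of 19 scaffold genes, 1 of 20 factors and 10 of 14 adult-type genes as higher, and 1 adult-type gene and 8 of 13 fetal-type genes as lower.

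In colon 2 of 17 other hydrolases, 0 of 20 transporters, 1 of 19 scaffold genes, 3 of 20 factors (Tcf7l2 and Klf5 among them) and 1 of 14 adult-type genes (Ces2c) rose in adult pools, and 1 transporter and 4 fetal-type genes fell. Of all genes, 5.94% rose and 2.89% fell there. Dpep1 (2.59 ± 0.18) and Entpd8 (1.74 ± 0.21), an ectonucleotidase, were the other hydrolases that rose, the amino acid transporter Slc7a9 fell (-3.51 ± 0.74), and Cobl rose (1.90 ± 0.24). The fetal-type list had 4 genes that fell in adult colon: Afp (-8.26 ± 0.75), cubilin Cubn (-4.88 ± 0.58), its partner amnionless Amn (-4.82 ± 0.74) and Dab2 (-2.09 ± 0.37). Medians in colon were -0.64 for the other hydrolases, -1.04 for the transporters, 0.27 for the scaffold and -2.45 for the fetal-type genes, beside -0.040 over all genes. Without the slide the medians were 0.30, 0.12, 1.04 and -1.21, so those of the other hydrolases and the transporters turned sign. The colon counts above include the pool labelled fetal colon that had a small intestine profile, and they depend on it.

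**Figure D4:**
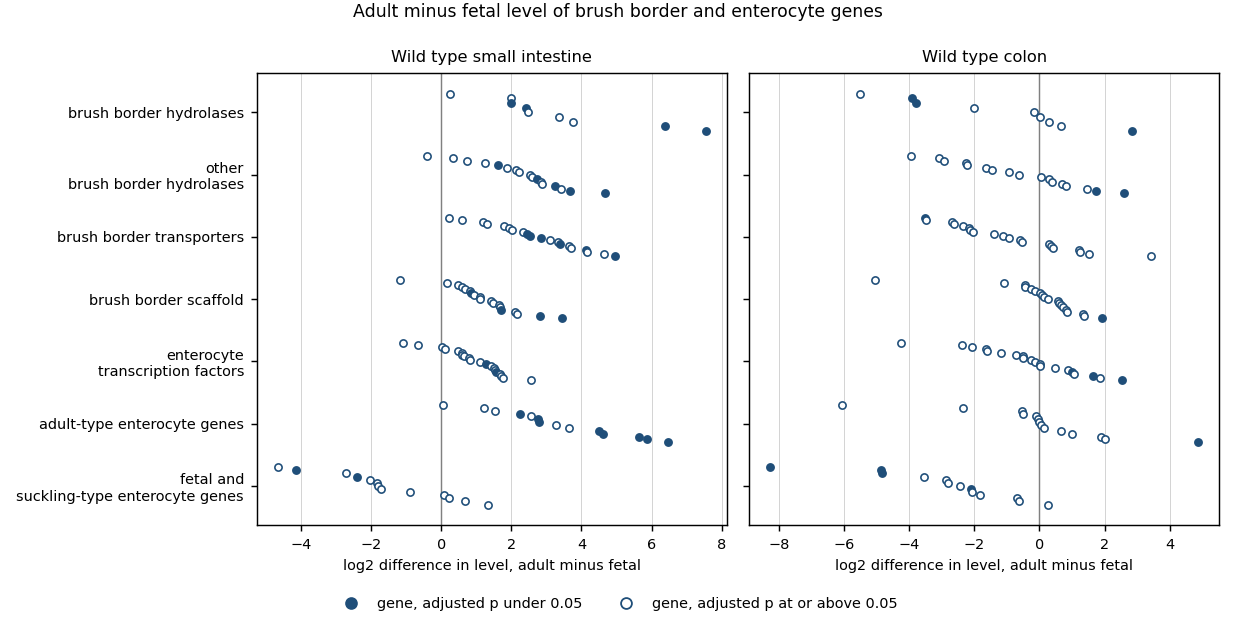
Adult minus fetal difference in wild type level (log2, horizontal axis) of each gene of the hydrolases and of 6 further lists, in small intestine and in colon; each point is a gene, and filled points have an adjusted p under 0.05. In small intestine the filled points of all lists but the fetal and suckling-type genes lie to the right of 0, and in colon filled points lie on both sides of 0.

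Markers of other cells also differed by stage. Of all genes, 4.78% were higher in adult than in fetal small intestine and 5.94% were higher in adult than in fetal colon. Of 9 Paneth cell genes 6 were higher in adult than in fetal small intestine (median difference 5.40), and 8 were without the slide (4.08). Of 8 B and plasma cell genes 4 were higher there (median difference 1.57), and 3 without the slide (1.44). The median of 10 pan-epithelial genes was 15.42 and 15.73 in wild type adult small intestine, against 13.82, 13.86 and 13.85 in fetal small intestine, and 15.48, 16.03 and 15.79 in adult colon, against 13.94 and 13.85 in fetal colon. T cell genes had a median of 9.33 and 9.14 in adult small intestine, against 7.41, 7.41 and 7.47 in fetal small intestine, where 6 of 12 rose. In colon it was 7.81, 7.77 and 7.56 in adult pools, against 7.47 and 7.50 in fetal pools. Genes of pancreatic acinar cells had medians of 12.75 and 11.59 in adult small intestine, against 9.01, 8.93 and 7.39 in fetal small intestine, where 1 of 18 passed. In colon they were at 14.34, 7.54 and 15.19 in adult pools, against 7.64 and 7.52 in fetal pools, where 2 of 18 passed. The part of these cells in the hydrolase differences was not tested.

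For each member the 2 genes with the most similar wild type level over the 9 replicates were found by Pearson correlation. Sis was most like the pantetheinase Vnn1 (r = 0.993) and Treh like the cytochromes Cyp3a25 and Cyp2b9 (r = 0.998 for both). Lct was most like Mro (r = 0.998), and Mep1b like Dgkq (r = 0.993) and the glucose transporter Slc5a1 (r = 0.990). Anpep was most like the chemokine Ccl25 (r = 0.992), and Enpep had Dpp4 as its next after Lmcd1 (r = 0.979 and 0.983). For Mep1a the highest r was lowest (0.961, Tapbpl), and for Nt5e it was 0.993 (Tradd). These values describe 4 groups of pools that share slides and stage, and carry no test.

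Few of the hydrolases passed the test between Spdef KO and wild type pools. In adult small intestine 1 of the 9, Nt5e, was higher in KO, where 0.398% of all genes passed and 0.164% as higher. In adult colon 0 of 9 passed, where 9.58% of all genes did (4.57% without the slide), and the count was also 0 at the fetal stage in small intestine (0.439% of all genes) and colon (0.287%) and in the mean of the 4 groups (1.79%). At an unadjusted p under 0.05 limma gave 2 members in adult colon (Enpep, Nt5e), where 27.6% of all genes passed, and 3 in the mean (Anpep, Enpep, Nt5e), where 16.7% did. It gave 0 members in fetal small intestine (7.57% of all genes) and 0 in fetal colon (6.53%). The median log2 ratio of the members was -0.099 and -0.095 in adult small intestine and colon, and 0.030 and 0.018 in the fetal tissues.

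**Figure D5:**
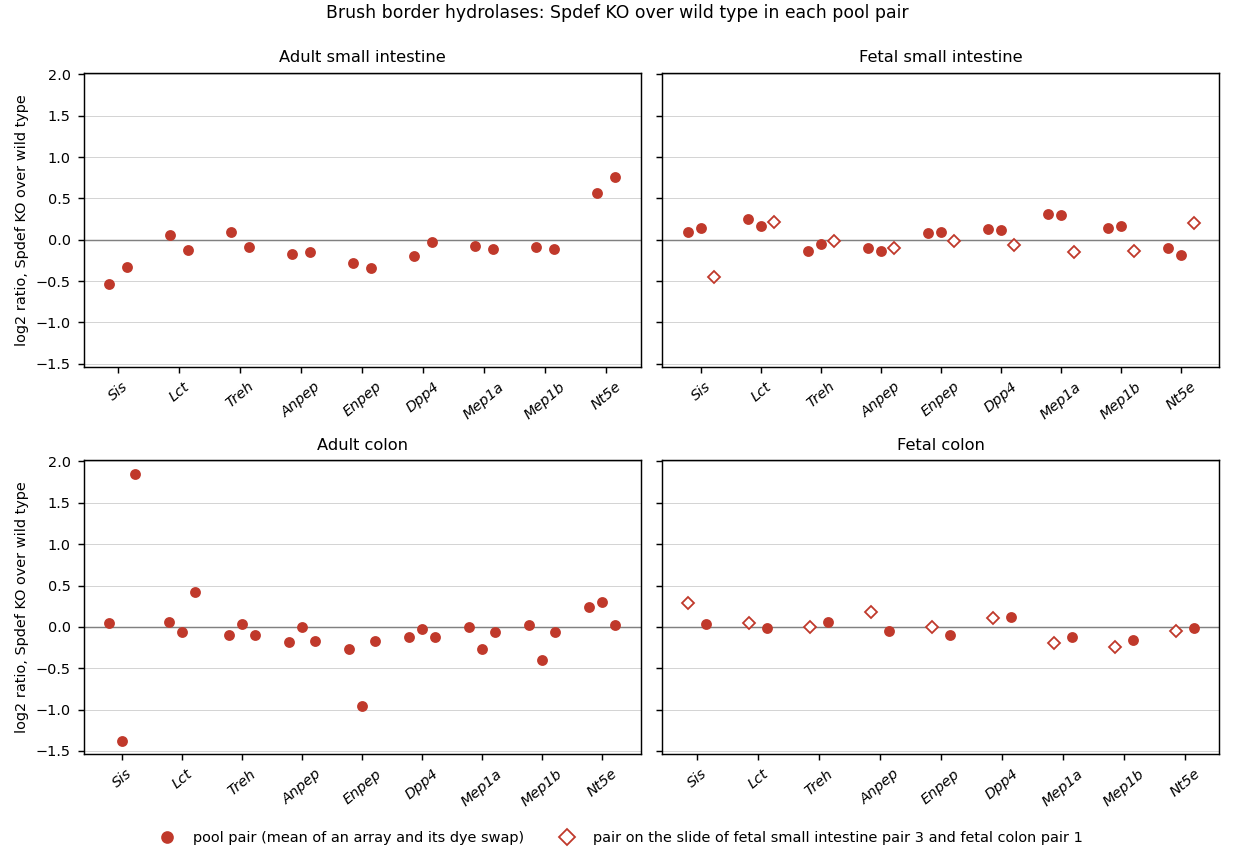
Log2 ratio of Spdef KO over wild type (vertical axis) of each hydrolase in each pool pair of the 4 groups; each point is the mean of an array and its dye swap, and open diamonds are the pairs on the slide that holds both pools set apart above. Nt5e lies above 0.5 in both adult small intestine pairs, Sis ranges from -1.38 to 1.85 in adult colon, and most other points lie within 0.5 of 0.

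Nt5e was at 11.59 and 11.24 in KO adult small intestine, against 11.03 and 10.49 in wild type. The log2 ratio was 0.51, 0.61, 0.75 and 0.76 on the 4 arrays, so it was above 0 in both dye orders of both pairs, and the mean was 0.66 ± 0.096 (1.58-fold, n = 2, adjusted p = 0.0353). The call was kept in 8 of 20 alternative analyses and lost in 12, among them those without either pair (adjusted p = 0.0825 without replicate 1, 0.279 without replicate 2) and without the slide (adjusted p = 0.0976). The second Nt5e probe, much dimmer, was at 7.48 and 7.76 in KO against 7.43 and 7.47 in wild type adult small intestine, a difference of 0.17 ± 0.062. In adult colon Nt5e was at 12.27, 11.66 and 11.23 in KO, against 12.03, 11.35 and 11.20 in wild type (0.19 ± 0.078, adjusted p = 0.157). The fetal values were 0.030 ± 0.096 in small intestine and -0.027 ± 0.096 in colon. Neither the difference between the adult tissues (0.47 ± 0.12, adjusted p = 0.29, where 0.158% of all genes passed) nor that between adult and fetal small intestine (0.63 ± 0.14, adjusted p = 0.136, where 0.258% did) passed.

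B and plasma cell genes were read beside Nt5e in adult small intestine. Their median level was 10.61 and 9.33 in KO, against 9.51 and 8.94 in wild type, and the 8 measured genes had differences between 0.14 and 1.51, none past the threshold. T cell genes had a median difference of 0.015 and endothelial genes of -0.024. Of the secretory cell genes, 5 of 9 Paneth cell genes (median -1.21) and 2 of 9 goblet cell genes (median -0.62) fell in KO adult small intestine, where 0.234% of all genes fell. The part of these cells in the Nt5e difference was not tested.

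Sis was lower in KO in both adult small intestine pairs, at 15.61 and 15.95 in KO against 16.14 and 16.29 in wild type, but this was within its spread (-0.43 ± 0.58, adjusted p = 0.849). That spread came from adult colon, where the 3 pairs disagreed: KO was at 8.46, 7.16 and 8.67, against 8.42, 8.53 and 6.82 in wild type. The arrays of a pair gave similar ratios, 0.08 and 0.01 in pair 1, -1.59 and -1.16 in pair 2, and 1.91 and 1.79 in pair 3. The variation of Sis in colon thus lay between pools and not between arrays. The wild type level of pair 3, 6.82, lay near that of probes at background. Pancreatic acinar genes also varied between these pools, with medians of 11.90, 7.53 and 12.48 in KO against 14.34, 7.54 and 15.19 in wild type, and their part was not tested.

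Enpep was lower in KO in every adult pair, with ratios of -0.28 and -0.35 in small intestine and -0.26, -0.96 and -0.16 in colon. Neither value passed (-0.32 ± 0.16, adjusted p = 0.489, in small intestine; -0.46 ± 0.13, adjusted p = 0.0617, in colon). The colon value ran from -0.64 to -0.21 over 20 alternatives, being -0.21 without adult colon replicate 2, and passed with fetal small intestine pairs kept separate, with a replicate block (adjusted p = 0.0396) and with no block (adjusted p = 0.0384). In the fetal pairs Enpep lay between -0.093 and 0.090. The other peptidases were close to 0, with Anpep at -0.16 ± 0.069 and Dpp4 at -0.11 ± 0.065 in adult small intestine.

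In adult small intestine the KO over wild type ratios of the pairs were 0.060 and -0.12 for Lct and 0.10 and -0.092 for Treh. The 95% interval of the log2 ratio was -0.27 to 0.21 for Lct and -0.14 to 0.15 for Treh. These intervals use a spread shared by the 4 groups. Treh lay at or near the floor in the other groups, and Lct in adult colon, so the intervals do not measure the spread in adult small intestine alone. Lct ratios were 0.25, 0.17 and 0.22 in the fetal small intestine pairs, although the levels of pair 3 (8.98 in KO, 8.76 in wild type) lay far below those of pairs 1 and 2 (16.24 and 16.22 in KO, 15.99 and 16.06 in wild type). In pairs 1 and 2 the Lct ratio was 0.49 and 0.38 with KO in Cy5, but 0.0039 and -0.049 with KO in Cy3. In pair 3 it was 0.17 and 0.26. Mep1a was at 0.32, 0.30 and -0.15 and Mep1b at 0.14, 0.16 and -0.14 in the same pairs, so pair 3 ran opposite to pairs 1 and 2. Neither passed in any of the 4 groups.

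The stage comparison was also made in the KO pools, a step added after the data were seen. Adult over fetal small intestine was 7.28 for Sis (adjusted p = 0.00159), 6.43 for Treh and 2.63 for Nt5e (adjusted p = 0.0195) in the KO channel, and Enpep had 2.06 (adjusted p = 0.0721). These KO and wild type values share arrays and slides, so one is no independent support of the other. Among the other brush border genes, 0 of 17 hydrolases and 0 of 20 transporters passed for KO over wild type in adult small intestine. In adult colon 1 of the 17 hydrolases rose and 1 fell, and 0 of the 20 transporters rose and 2 fell, where 9.58% of all genes passed. Without the slide 0 hydrolases passed and 2 transporters fell. With all slides Clca4a rose (0.71 ± 0.13, adjusted p = 0.0195), whereas the vitamin transporter Slc5a6 fell (-0.37 ± 0.047, adjusted p = 0.00528), as did the amino acid transporter Slc36a1 (-0.79 ± 0.11, adjusted p = 0.00826).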

How the data were processed

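Per the labels, 500 ng of pooled RNA was amplified and labelled with Cy3 or Cy5, and up to 4 of the arrays lay on a slide. Adult small intestine pair 1 and adult colon pair 1 each lay on a slide with no other pool pair. Per the file headers, spots were extracted with Agilent Feature Extraction 9.5.3, and the deposited mean and background signals are intensities on a linear scale. The deposited scanner files also give log10 ratios of red over green, per the file headers, which were used only to read the series table. That table, as deposited by the authors, gives a log ratio per array, many exactly 0. Its scale (log2) and direction are not stated and were set by comparison with the scanner values, and it served as an alternative.

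limma 3.58.1 (R 4.3.3) subtracted background from the intensities (normexp, offset 50), normalized each array by loess and scaled levels between arrays by Aquantile. Control and outlier spots were dropped, spots of 1 probe were averaged, and so was each array with its dye swap. Ratios and levels of the 9 replicates were fitted separately on the 4 groups, which left 5 residual degrees of freedom. P-values are two-sided and were adjusted (Benjamini-Hochberg) over 17084 genes, with a threshold of 0.05. ± is a limma SE. The fit alone, not the steps before it, was run on simulated replicate values with known changes.

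Gene names were updated through the RefSeq table (GRCm38.p6): 23374 probes by accession, 6733 by symbol, 2919 by older symbol, and 8148 kept the file's name. Promoters of 8 of the 9 members came from the same build. The members and lists were chosen with earlier results of these data known. By the rule, the 9 members, Spdef, up to 4 genes of a list with the smallest adjusted p and the 2 genes most like each member are named. Entpd8 in colon, Cdx2, Hnf4a, Gata4 and the regional genes shown were chosen after their values were seen. Same-numbered pools were not treated as pairs: their deviations from group means correlated at -0.133 to 0.152 across genes, and other numbers at -0.158 to 0.158. Results of some genes are not reported here.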

Additional observations from a re-analysis of the deposited data

Results flagged for a closer look

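For 4 members the adult minus fetal difference in wild type level was not the same in the 2 tissues by the test of the difference itself. The small intestine value exceeded the colon value by 7.73 for Sis, 6.36 for Treh, 6.29 for Anpep and 6.32 for Enpep on the log2 scale. Treh kept its call in 20 of 21 alternatives, Sis in 15, Enpep in 14 and Anpep in 10. Treh had passed the filter only through adult small intestine, where it is high. With slide as a random block Sis (adjusted p = 0.0986), Anpep (0.149) and Enpep (0.0648) did not pass. Without the slide on which labels and regional genes disagreed Treh was at 5.85 (adjusted p = 0.00736), Anpep at 4.50 (adjusted p = 0.0373), Enpep at 5.15 (adjusted p = 0.0447) and Sis at 6.78 (adjusted p = 0.056).
In small intestine the adult minus fetal differences were 7.55 (Sis), 6.37 (Treh), 2.49 (Anpep) and 2.42 (Enpep), and in colon they were -0.18, 0.016, -3.80 and -3.91.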

How the results depend on the processing

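Counts are of the 9 members past the threshold. For KO over wild type in adult small intestine the count of 1 (Nt5e) was 0 with the scanner's processed signals, the mean of all kept probes, a replicate block, a trended robust prior, median centring, the series table, and without the slide on which labels and regional genes disagreed, and 0 to 1 with replicates left out. In adult colon it was 1 (Enpep) with the replicate block and with fetal small intestine pairs kept separate. With those pairs separate it was also 1 for the mean of the 4 groups (0 to 1 with replicates left out) and 1 for adult minus fetal small intestine. The wild type stage count in small intestine was 2 without scaling between arrays and 2 to 6 with replicates left out. In colon it was 5 with processed signals and 7 without scaling. Without scaling, 6095 of 17084 genes passed in colon, against 1507 with scaling, so the count of 7 is not particular to the members. In that setting Treh turned to -1.51 (adjusted p = 0.0341) and the median of all genes was at -1.05. Between adult tissues it was 3 to 6 with replicates left out. Between fetal tissues it was 2 without the slide, where Lct turned to 6.94 and Mep1b to 2.55. The count for the difference between the tissues' stage differences was 2 with processed signals, 2 without the filter, 2 with the replicate block, 1 with slide as a random block and 1 to 4 with replicates left out. Over all genes, KO calls in adult small intestine numbered 68 (13 to 133 over the alternatives) and in adult colon 1636 (57 to 2464). Wild type stage calls numbered 1442 in small intestine (995 to 3250, and 277 to 2791 with replicates left out) and 1507 in colon (1262 to 6095, and 592 to 1961 with replicates left out). Of 2385 member values under the alternatives, 2000 were not called in either setting (145 of them with the sign turned), 297 kept a call, 59 lost it, 26 gained one and 3 changed sign with a call. The cause of these changes was not tested. Residual degrees of freedom were 5, and signals near background limit Treh and Lct in adult colon, and Sis in wild type adult colon pair 3.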
